A study of Rattus norvegicus with 125 samples.

Results

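The short-loop descending thin limb (SDL) was represented by 10 libraries, SDL 1 to SDL 10, chosen by their tissue label out of the 125 samples in the series, which cover 14 dissected tubule segments. Each library was made from a short stretch of tubule dissected by hand from a rat kidney, amplified by a single-cell RNA-seq protocol and sequenced as paired 50 nt reads. The authors deposited one value per transcript and library, as reads scaled to transcript length and library size (RPKM), corrected with the polyadenylation sites of a whole-kidney library set.

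All groups came from adult male Sprague-Dawley rats of 200 to 250 g on normal chow, with no treatment. The left kidney was perfused and digested with collagenase, for 50 min for the outer medulla, where the SDL lies, against 25 min for cortex and 90 min for inner medulla. The SDL was set against 95 libraries of the other 13 segments. These were the long-loop descending thin limb, taken from outer medulla (LDLOM, 9 libraries) and from inner medulla (LDLIM, 4), the thin ascending limb (tAL, 7), the medullary and cortical thick ascending limbs (mTAL and cTAL, 7 each), the S1, S2 and S3 proximal tubule (7 each), the distal convoluted tubule (DCT, 8), the connecting tubule (CNT, 6) and the cortical, outer medullary and inner medullary collecting ducts (CCD, 11, OMCD, 7, and IMCD, 8). The labels do not say which libraries came from which rat, so p-values measure the spread between libraries, which may in part be technical.

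In short-loop nephrons the SDL joins the proximal straight tubule to the thick ascending limb in the outer medulla, next to the vascular bundles. Its flat cells carry little sodium transport machinery and are known for the urea transporter UT-A2, a product of Slc14a2 that recycles urea leaving the vasa recta into the tubule. Immunolabelling in rodents has placed the water channel Aqp1 along long-loop descending limbs and not along much of the short-loop limb.

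The libraries differed widely in content. Genes at 1 RPKM or more numbered 2195 to 7700 per SDL library with a median of 3325.5, against 1438 to 8574 in all tubule libraries. SDL 1, SDL 2 and SDL 7 were among the 14 tubule libraries with under 2500 such genes. Pearson's r of log2(RPKM + 1) across the tested genes had a median of 0.443 over the 45 pairs of SDL libraries, and 0.460 over the 90 pairs of an SDL and an LDLOM library. The likeness was not particular to LDLOM. Over the other segments the median ran from 0.386 with S2 to 0.490 with LDLIM, and it was 0.481 with cTAL and 0.465 with CCD. The closest pair with an SDL library in it was SDL 3 and an LDLOM library, at r = 0.862. The libraries share a protocol and differ in the number of genes seen, and genes are not independent, so these r are descriptions. A value of 0 can stand for an RNA that was not captured, since in SDL 10 the translation factor Eef1a1 stood at 9.29 RPKM, against 854 RPKM in SDL 1, and 5 of 24 oxidative phosphorylation genes lay under 1 RPKM.

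The 3 genes that mark the segment differed in how many SDL libraries held them, with Cldn3 above 10 RPKM in 9 of 10 and Cav1 and the Slc14a2 transcript given first in 6 of 10. Slc14a2 has 3 transcripts in the table. Transcript NM_001110270 had 0.326, 37.7, 0.0859, 20.3, 51.7, 202, 16.1, 0, 463 and 0.0974 RPKM in SDL 1 to SDL 10, against a median of 0 and a highest value of 0.237 RPKM in LDLOM. It stood above 10 RPKM in 6 SDL libraries and under 1 RPKM in the other 4, SDL 1, 3, 8 and 10. Its mean was 79.2 ± 148 RPKM in SDL (SD, n = 10), against 26.1 RPKM in LDLIM and 99.5 RPKM in IMCD, the collecting duct segment that uses the same gene for urea exit. With each transcript fitted on its own, limma gave a log2 change of 3.61 ± 0.60 (SE) for SDL minus LDLOM (adjusted p = 0.00015) and 2.80 ± 0.44 for SDL minus the mean of the other 13 segments (adjusted p = 1.45e-06). Transcript NM_019347 averaged 64.4 RPKM in SDL, against 0.407 RPKM in LDLOM, and the third, NM_177962, 36.5 RPKM in SDL, against 14.3 RPKM in LDLOM. In IMCD they averaged 215 and 388 RPKM, and in LDLIM 26.8 and 33.9 RPKM. The median of NM_177962 was 3.23 RPKM in SDL and 2.62 RPKM in LDLOM, with 176 RPKM in SDL 4 and 140 RPKM in SDL 10. Without polyadenylation-site data its mean in SDL was 9.37 RPKM. NM_177962 represents Slc14a2 in the gene table because its mean over all libraries was highest, and its change of 0.90 ± 0.65 for SDL minus LDLOM missed the threshold (adjusted p = 0.75). Against the other 13 segments it was called at 1.49 ± 0.47 (adjusted p = 0.042), and 12 of 24 alternatives ended that call, with adjusted p up to 0.54, among them leaving out SDL 3, 4, 5, 6 or 10.

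Cldn3, a tight junction claudin, had 164, 127, 23.4, 18.4, 164, 480, 0.750, 96.1, 1178 and 193 RPKM in SDL 1 to SDL 10, against a median of 0.157 and a highest value of 384 RPKM in LDLOM. Its mean log2 level was the highest of the 14 segments, with CCD next. The log2 change was 3.27 ± 0.78 for SDL minus the other 13 segments (limma, adjusted p = 0.0034), 4.75 ± 1.08 for SDL minus LDLOM (adjusted p = 0.023) and 1.80 ± 1.15 for SDL minus tAL (adjusted p = 0.61). With array quality weights the first value was 2.88 and missed the threshold (adjusted p = 0.056).

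Cav1, the coat protein of caveolae, had 632, 484, 9.34, 0.0333, 91.0, 145, 637, 0.0700, 74.6 and 0.0458 RPKM in SDL 1 to SDL 10, against a median of 0.162 and a highest value of 6.94 RPKM in LDLOM. The SDL libraries fell over the whole range of the other segments, whose highest value was 710 RPKM, and 3 of them held almost none. The log2 change was 3.23 ± 0.72 for SDL minus the other 13 segments (limma, adjusted p = 0.0015). Endothelial and mural cells also express Cav1, and which cells held it here was not tested. Without the 5 SDL libraries with the most mural cell markers the change was 1.51 ± 0.92 (adjusted p = 0.51), and without libraries under 2500 genes it was 1.36 (adjusted p = 0.43). Mural markers summed to 676, 3501 and 312 RPKM in SDL 1, 2 and 7, which held the most Cav1. They summed to 4.76 and 4.49 RPKM in SDL 6 and 9, with 145 and 74.6 RPKM of Cav1. In SDL 10 they summed to 216 RPKM, with 0.0458 RPKM of Cav1.

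**Figure D1:**
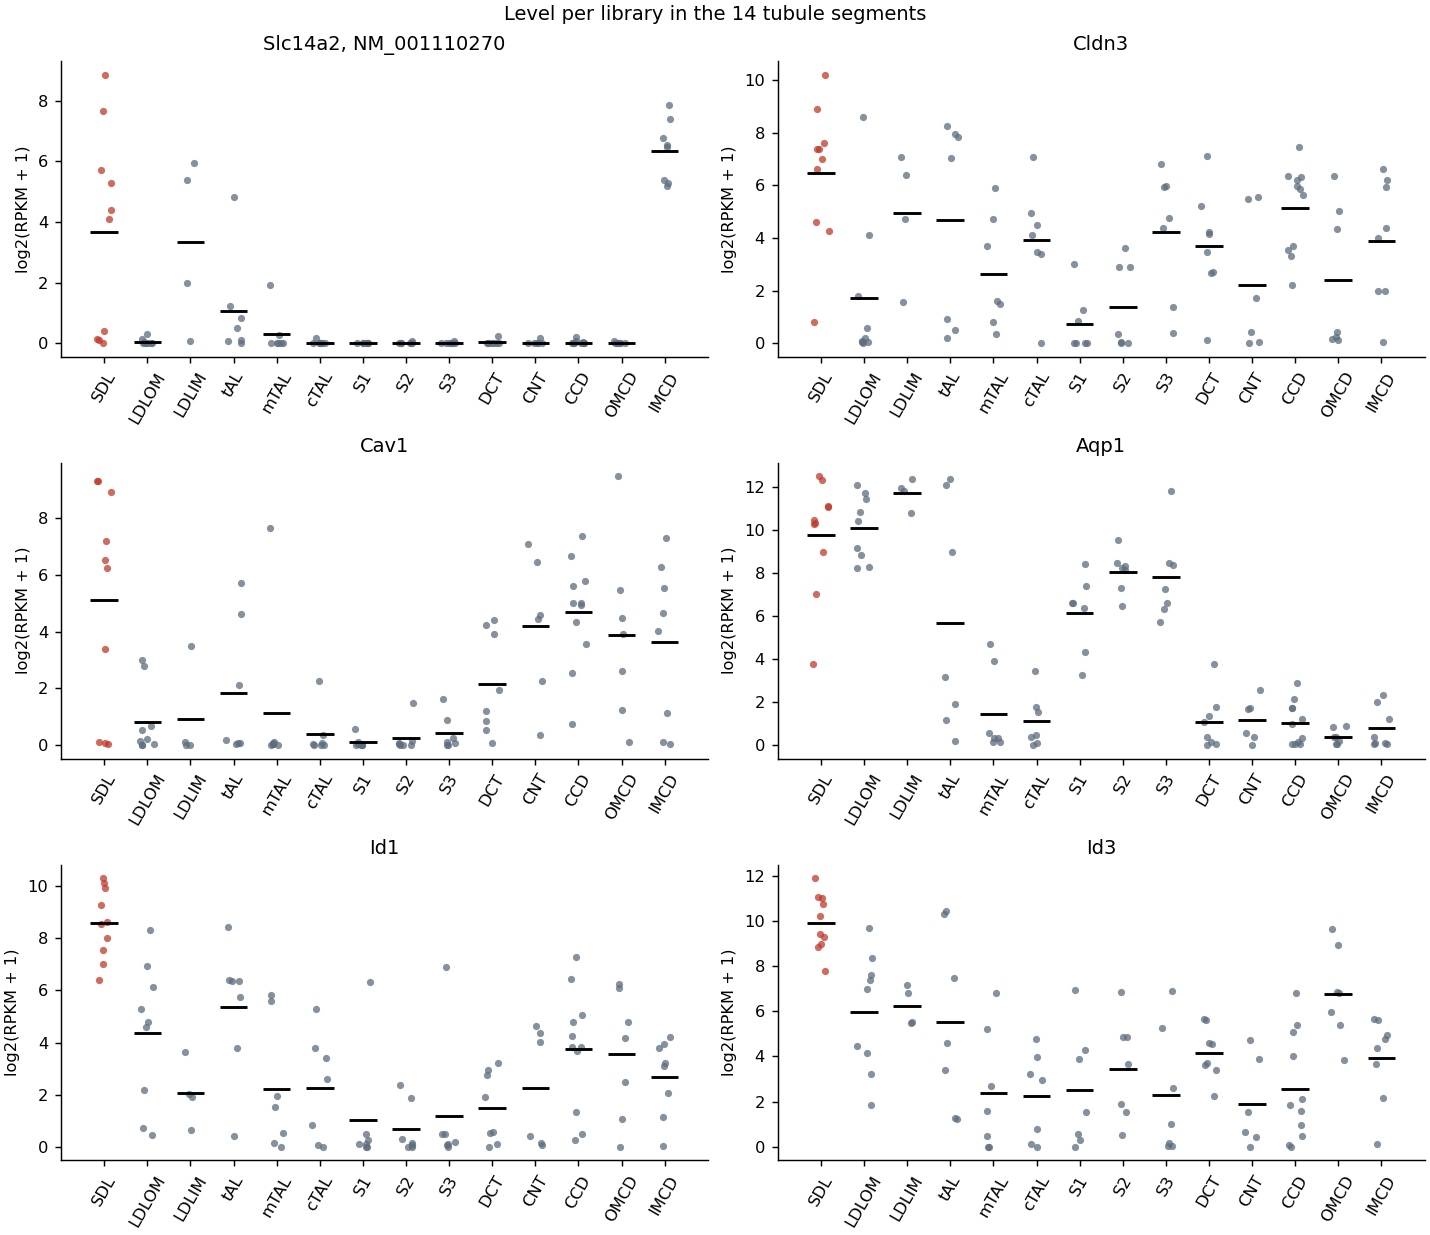
Level of an Slc14a2 transcript, Cldn3, Cav1, Aqp1, Id1 and Id3 in log2(RPKM + 1), with 1 point per library, bars at the segment means, and SDL (10 libraries, red) left of the other 13 segments. Id1 and Id3 were high in all 10 SDL libraries, while Slc14a2 and Cav1 split the SDL libraries between high values and values near 0.

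Every gene was then tested for SDL minus the mean of the other 13 segment means with limma on log2(RPKM + 1), a scale that understates the change of low genes. Of 11078 genes tested, 502 (4.53%) had a Benjamini-Hochberg adjusted p under 0.05 and a log2 change of at least 1 either way, and these are the genes called here. Of all genes, 311 (2.81%) were called higher in SDL and 191 (1.72%) lower, and the median change of all genes was -0.10. A pseudocount of 0.1 RPKM gave 232 higher and 226 lower. In 162 of the called genes the SDL mean was the highest of the 14 segments. Of the 311 higher genes, 83 peaked in LDLIM, 23 in IMCD, 22 in tAL and 12 in LDLOM. No called gene separated all SDL libraries from all others.

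The largest rise was that of Spp1, which encodes osteopontin, a secreted phosphoprotein. It had 2575 to 44139 RPKM in SDL with a median of 15834, against a median of 116 RPKM in the other 95 libraries, a log2 change of 6.60 ± 0.88 (adjusted p = 1.55e-08). All 10 SDL libraries lay above the median of the others, while 8 of them lay within the range of LDLOM, 5717 to 51303 RPKM, and SDL 9 and SDL 2 below it. The 15 largest rises were Spp1, Id3, Id1, Fst, Aqp1, Vim, Tspan8, Igfbp2, Parm1, S100a6, Bst1, Smim3, Bgn, Fstl1 and St6galnac2, and all 15 were called under each of the 24 alternative settings run. Parm1, which encodes a membrane mucin, had 146 to 418 RPKM in SDL with a median of 288, against a median of 2.50 RPKM in the other libraries (log2 change 5.06 ± 0.65, adjusted p = 3.77e-09). The calcium-binding protein S100a6 had 777 to 7256 RPKM in SDL with a median of 2725, against 91.3 RPKM in the others (log2 change 4.97 ± 0.75, adjusted p = 6.25e-07). Igfbp2, a binding protein of insulin-like growth factors, had 0.893 to 717 RPKM in SDL with a median of 83.5, against a median of 0.0510 RPKM in the others (log2 change 5.09 ± 0.56, adjusted p = 1.49e-11), and was at 10 RPKM or more in 8 of 10 SDL libraries. The intermediate filament gene Vim was above 100 RPKM in 9 SDL libraries and at 5.44 RPKM in SDL 7.

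Of the genes in the table, 212 reached 10 RPKM in all 10 SDL libraries and 66 reached 100 RPKM. The 66 were picked by their level in SDL, which favours genes higher there. Among the 66 were 18 genes called higher in SDL, against 2.81% of all genes tested. These were the annexin Anxa5, the surface glycoprotein Cd24, the small heat shock protein Cryab, the cathepsin Ctsl1, the fatty acid carrier Fabp3, the protease inhibitor Timp3, the proteoglycan Sdc2, the Wnt-secretion factor Wls, the S100 proteins S100a1, S100a6 and S100a11, and Efhd1, H3f3b, Id3, Myl12a, Parm1, Rpl13a and Spp1.

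**Figure D2:**
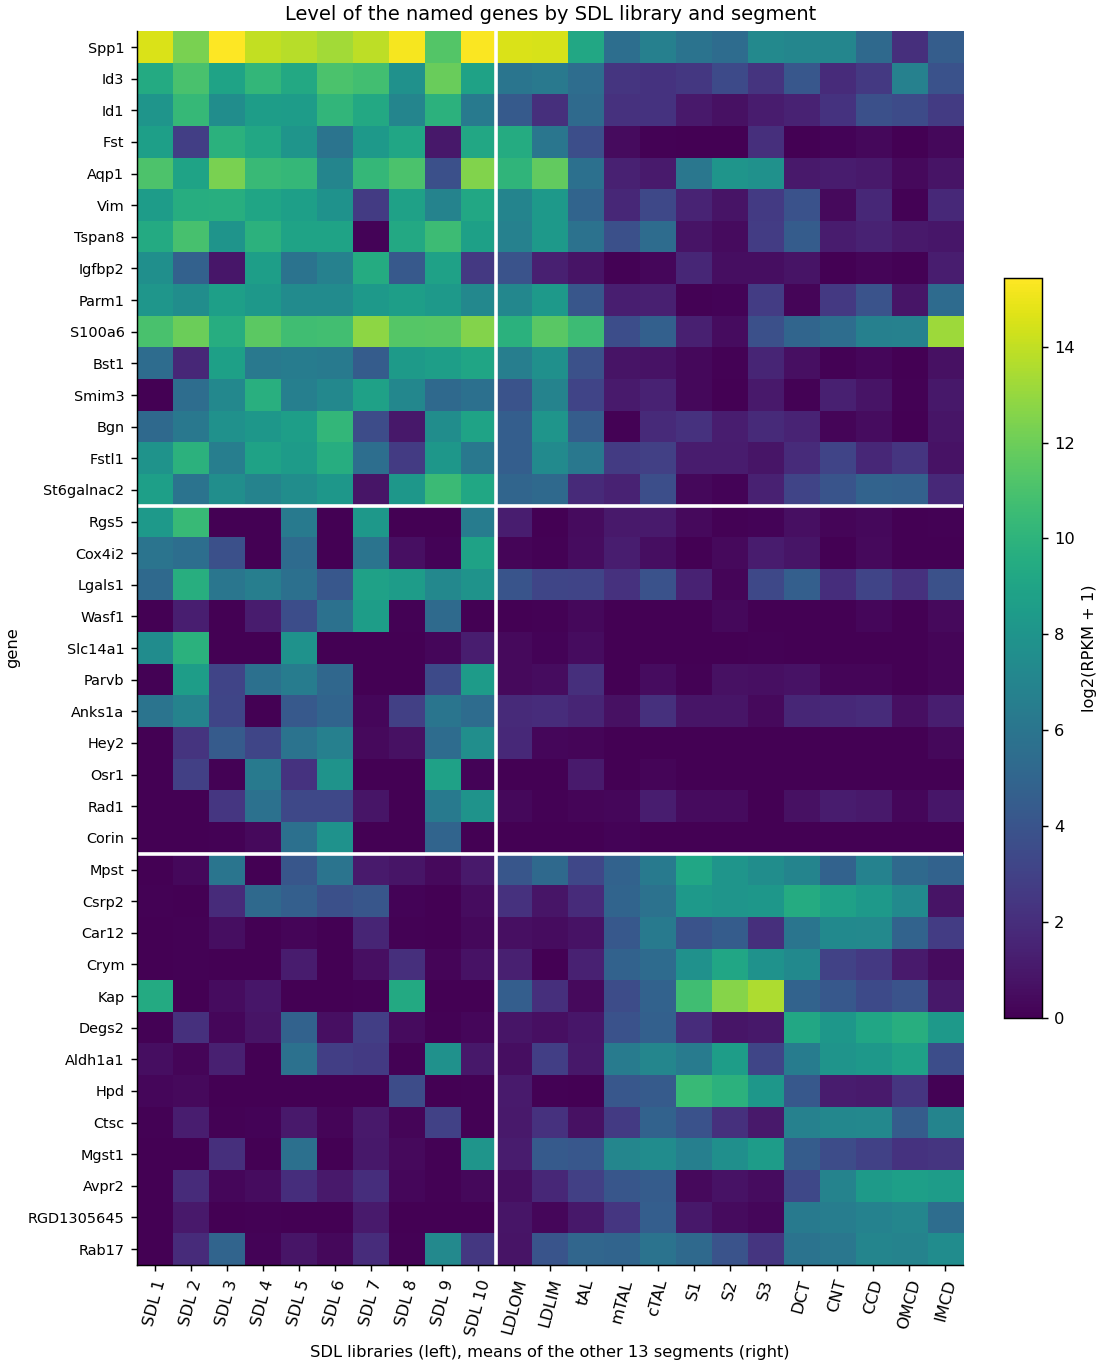
Colour gives log2(RPKM + 1) for each of the 10 SDL libraries at the left and as the mean of each of the other 13 segments at the right. From the top the blocks hold the 15 genes with the largest rise, the further genes with the largest lead over the next segment, and 13 of the 15 genes with the largest fall. The genes of the top block were at 10 RPKM or more in 8 to 10 SDL libraries each, and those of the middle block in 3 to 10.

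By mean log2 level, Id1 and Id3 had the largest lead of the SDL over the next segment. They encode small proteins that bind basic helix-loop-helix transcription factors and keep them off DNA, and both are known targets of bone morphogenetic protein (BMP) signalling. Id1 had 259, 1270, 187, 388, 371, 1119, 625, 127, 961 and 82.3 RPKM in SDL 1 to SDL 10, against 0.339 to 348 RPKM in tAL, the next segment, and a median of 3.14 RPKM over the other 95 libraries. In 6 SDL libraries it exceeded every other library. Its log2 change was 6.04 ± 0.69 for SDL minus the other segments (adjusted p = 1.17e-10), and the lead of the SDL mean over tAL, 3.21 ± 1.03, missed the threshold (adjusted p = 0.086). Id3 had 680, 2065, 499, 1191, 627, 2108, 1709, 221, 3826 and 464 RPKM in SDL 1 to SDL 10, against a median of 13.6 RPKM over the other 95 libraries (log2 change 6.08 ± 0.75, adjusted p = 1.25e-09). Its mean in SDL led OMCD, the next segment, by 3.14, a difference that was not tested, and its change against LDLOM, 3.95 ± 1.04, missed the threshold (adjusted p = 0.082). The relatives Id2 and Id4 were not called, with medians of 0.425 and 11.6 RPKM in SDL, against 1.98 and 3.07 RPKM in the others.

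The promoters of Id1 and Id3 are shown because both genes were high in every SDL library. Each is 300 bases long, from 250 bases before the annotated start to 50 after it, from RefSeq with build GRCr8, on the plus strand at chr3:161671314-161671613 for Id1 and chr5:153656041-153656340 for Id3. Capitals mark matches on either strand to the GC box GGGCGG, the CCAAT box CCAAT and the TATA box TATAAA, and overlapping GC boxes run together.
Id1: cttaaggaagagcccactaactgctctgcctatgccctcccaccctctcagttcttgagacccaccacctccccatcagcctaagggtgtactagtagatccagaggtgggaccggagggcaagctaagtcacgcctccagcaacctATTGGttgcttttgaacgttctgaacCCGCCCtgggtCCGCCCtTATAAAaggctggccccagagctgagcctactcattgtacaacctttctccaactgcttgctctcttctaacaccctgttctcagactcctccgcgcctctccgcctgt
Id3: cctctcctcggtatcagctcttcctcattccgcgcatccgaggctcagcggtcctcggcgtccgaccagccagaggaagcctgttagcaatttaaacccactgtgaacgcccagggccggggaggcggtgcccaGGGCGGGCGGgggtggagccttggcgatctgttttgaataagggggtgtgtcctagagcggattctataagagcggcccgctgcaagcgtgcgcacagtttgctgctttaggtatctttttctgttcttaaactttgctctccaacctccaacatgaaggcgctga
Id1 held 2 GC boxes, 1 CCAAT box and 1 TATA box, and Id3 held 2 overlapping GC boxes. Of all 33469 rat promoters of that length, 33.1% held a GC box, 37.5% a CCAAT box and 14.2% a TATA box. GGCGCC, the core of a BMP-responsive element, was in 11.0% of them and in neither of these windows, which cover only the start of each gene. A match in letters is a description and not a binding site.

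Of the 24 tested genes of the list for Id proteins and BMP and TGF beta signalling, 6 were called higher and 1 lower, with a median change of 0.55, against 2.81% higher and 1.72% lower over all genes and a median of -0.10. Beside Id1 and Id3, Fst, the secreted binder of activins and BMPs, had 0.954 to 942 RPKM in SDL with a median of 365, against a median of 0.0132 RPKM in the others (log2 change 5.48 ± 0.64, adjusted p = 1.82e-10). In LDLOM Fst had 139 to 1790 RPKM. Tgfbr2, a TGF beta receptor, changed by 2.74 ± 0.66 (adjusted p = 0.0037), and its call was lost with array quality weights, without the 5 SDL libraries with the most mural markers and in the table without polyadenylation-site data, where the change was 0.60. The BMP receptor Acvrl1 and the ligand Bmp6 were called at 2.10 and 1.30, and without the 5 SDL libraries with the most mural markers the values were -0.35 and -0.16. The call of Bmp6 was also lost without SDL 2 or SDL 5. The BMP antagonist Grem1 was under 1 RPKM in all 10 SDL libraries and fell by 2.19 ± 0.41 (adjusted p = 6.24e-05).

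The 10 SDL libraries did not hold one common pattern. Aqp1 had 2195, 500, 5056, 1379, 1248, 130, 1255, 2150, 12.5 and 5716 RPKM in SDL 1 to SDL 10, against 294 to 4255 RPKM in LDLOM and a median of 2.75 RPKM in the other 95 libraries. Its range in SDL thus ran from under the lowest LDLOM library to above the highest. Its log2 change for SDL minus the other 13 segments was 5.43 ± 0.67 (adjusted p = 1.25e-09). The 4 SDL libraries with the most Aqp1, SDL 10, 3, 1 and 8, were the 4 with under 1 RPKM of Slc14a2 transcript NM_001110270. SDL 6 and SDL 9, with the least Aqp1, held the most of it, at 202 and 463 RPKM.

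Other genes followed the same order, in one direction or the other. Spp1 was lowest in SDL 9, 2 and 6 and highest in SDL 3, 10 and 8, with a Spearman's rho of 0.964 and a Pearson's r of 0.907 with Aqp1 over the 10 libraries. Fst, at 0.954, 6.23 and 61.3 RPKM in SDL 9, 2 and 6 and at 264 RPKM or more in the other 7, had a rho of 0.927 and an r of 0.884. The claudin Cldn23 had a rho of 0.794, and Fxyd2, a regulatory subunit of the sodium pump, also 0.794. In the opposite direction, rho with Aqp1 was -0.891 for Slc14a2 NM_001110270, -0.855 for NM_019347, -0.879 for Id1 and -0.842 for Id3, with r of -0.879, -0.813, -0.769 and -0.811. The third Slc14a2 transcript, NM_177962, did not follow the order, at 140 RPKM in SDL 10 and 0.0328 RPKM in SDL 9, with a rho of 0.080 and an r of 0.276. Cldn3 had a rho of -0.333 and an r of -0.54. Without SDL 6 and SDL 9, the 2 libraries farthest from the median of Aqp1 in log2(RPKM + 1), its r was 0.11. Without the same 2 libraries r with Aqp1 was 0.946 for Spp1, 0.791 for Fst, -0.904 for Id1, -0.693 for Id3 and -0.830 for Slc14a2 NM_001110270. It was weaker for Fxyd2, at 0.539 without them, against 0.899 with them, and for Slc14a2 NM_019347, at -0.513 without them, against -0.813 with them. Cldn2, Vim, Cryab and Timp3 had a rho of 0.455, 0.527, -0.309 and -0.455. The number of genes detected had a rho of -0.152 with Aqp1. These 22 relations were picked after the values had been seen and are given as a description of 10 libraries with no test.

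**Figure D3:**
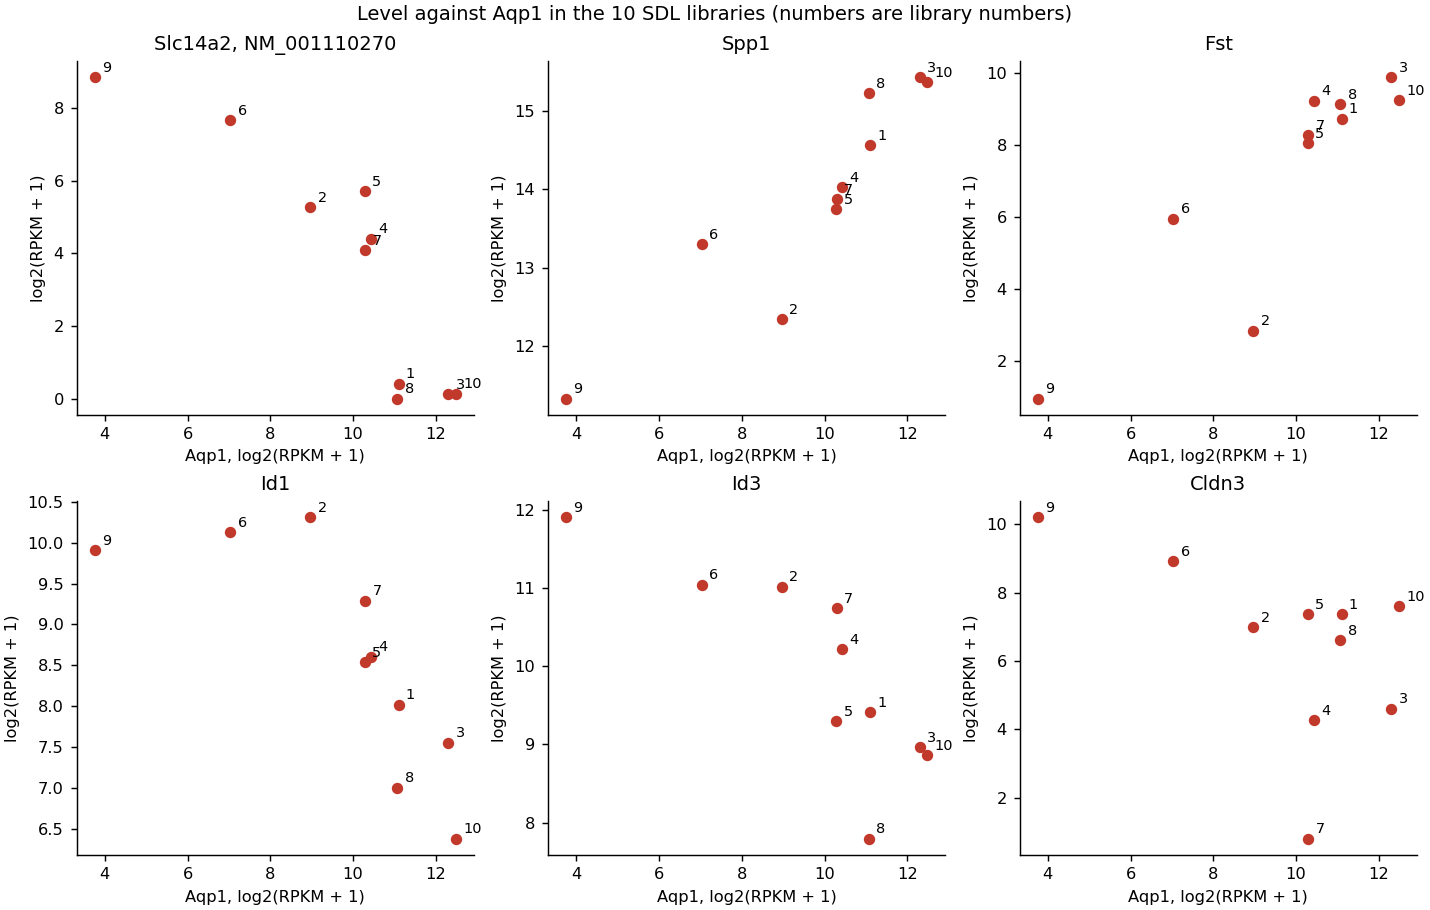
Level of 6 genes against Aqp1 in the 10 SDL libraries, both in log2(RPKM + 1), with the library number beside each point. Spp1 and Fst were higher, and Slc14a2 transcript NM_001110270, Id1 and Id3 lower, in libraries with more Aqp1, from SDL 9 with 12.5 RPKM of Aqp1 to SDL 10 with 5716 RPKM.

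Several genes with a large lead of the SDL were carried by some of the libraries only. Osr1, a zinc finger transcription factor of the early kidney, had 80.6, 237 and 461 RPKM in SDL 4, 6 and 9 and at most 6.43 RPKM in the other 7, against at most 13.3 RPKM in any other library (log2 change 2.74 ± 0.38, adjusted p = 4.37e-08). Cyp4b1, a cytochrome P450, had 233, 361, 44.8, 189 and 196 RPKM in SDL 2, 4, 5, 6 and 9 and under 1 RPKM in the other 5, against at most 0.352 RPKM in LDLOM. Corin, the protease that activates atrial natriuretic peptide, had 50.5, 228 and 29.8 RPKM in SDL 5, 6 and 9 and under 1 RPKM in the rest, against at most 1.08 RPKM in any other library (log2 change 1.88 ± 0.30, adjusted p = 2.84e-06). It passed the filter of 1 RPKM in at least 4 libraries with the help of SDL 5, 6 and 9. It was tested in 19 of 24 alternatives, and its adjusted p is that of a gene let in partly by its SDL values. The Notch effector Hey2 was at 10 RPKM or more in 5 SDL libraries and in 1 of the other 95 (log2 change 3.47 ± 0.36, adjusted p = 1.23e-12). For such genes the pooled spread behind the p-values does not measure how far the SDL libraries differed among themselves.

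Other leading genes came with markers of vessels. The red cell and descending vasa recta urea transporter Slc14a1 had 179, 935 and 235 RPKM in SDL 1, 2 and 5 and at most 1.37 RPKM in the other 7, against at most 6.12 RPKM in the other 95 libraries (log2 change 2.57 ± 0.41, adjusted p = 2.19e-06). Rgs5, a pericyte marker, had 318, 1337, 80.5, 294 and 89.1 RPKM in SDL 1, 2, 5, 7 and 10 and under 1 RPKM in the other 5, against at most 93.6 RPKM elsewhere. The 10 mural cell markers summed to 676, 3501, 3.82, 33.7, 693, 4.76, 312, 0.102, 4.49 and 216 RPKM in SDL 1 to SDL 10, against a median of 7.28 and a highest value of 145 RPKM in the other libraries. They thus exceeded 100 RPKM in 5 SDL libraries and in 2 of the other 95. Rgs5 is one of the 10 and held 294 of the 312 RPKM in SDL 7, so its level and the sum are not separate observations. In the table without polyadenylation-site data the log2 change of Rgs5 for SDL minus the other segments was 1.36. The 10 fibroblast and interstitial markers, led by Mgp, summed to 2005 and 2677 RPKM in SDL 2 and SDL 7, against at most 1198 RPKM in the others. The 18 endothelial markers summed to 40.8 to 1678 RPKM in SDL with a median of 408, against a median of 55.8 RPKM in all the others and of 687 RPKM in tAL. Of 14 tested endothelial markers 4 were called higher, Esam, Cldn5, Emcn and Sox17, of 8 mural markers 3, Rgs5, Tagln and Des, and of 7 fibroblast markers 1, Mgp, and none was lower, against 2.81% higher and 1.72% lower over all genes. Emcn, a sialomucin of endothelium, had 348, 121 and 69.3 RPKM in SDL 10, 2 and 5 and at most 24.1 RPKM in the other 7 (log2 change 2.17 ± 0.70, adjusted p = 0.0498), and 18 of 24 alternatives ended its call. Sox17, an endothelial transcription factor, had 72.5, 39.9 and 14.1 RPKM in SDL 1, 5 and 2 and at most 3.23 RPKM in the other 7 (1.67 ± 0.27, adjusted p = 5.58e-06). The call of Mgp was lost in 11 of 24 alternatives, among them without SDL 1, 2, 5, 7 or 10, and that of Des without SDL 2, 5 or 10. Without libraries under 2500 genes Rgs5, Sox17, Des and Mgp lost theirs. Esam kept its call in all 24. Esam made up most of the endothelial sum in SDL 1, 3, 6, 8 and 9. The endothelial genes Pecam1, Kdr and Flt1, named after their values were seen, were at most 8.87, 2.78 and 2.06 RPKM in SDL. Picked for their low values, they do not stand for the whole list, which summed to 1654 and 1678 RPKM in SDL 5 and SDL 10. Smooth muscle Cnn1, and Col1a2, Lum and Pdgfra of fibroblasts, were under 1 RPKM in all 10 SDL libraries.

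Fitted with only the 5 SDL libraries that had 100 RPKM or less of mural markers, a setting chosen after the values had been seen, 364 genes were called, 320 higher and 44 lower, and 213 of them were among the 502. The change of Slc14a1 was then -0.045, of Rgs5 -0.44, of the endothelial claudin Cldn5 -0.28, of Mgp -1.55 and of the cytochrome oxidase subunit Cox4i2 0.48, and none of them was called. Rgs5 is one of the markers whose sum chose the libraries left out, so its lower value there was fixed by the choice. Id1, at 6.10 ± 0.96 (adjusted p = 3.72e-06), and Id3, at 6.14 ± 1.05 (adjusted p = 2.08e-05), were called in that fit too. So were Osr1, at 4.53, Cyp4b1, at 4.49, and Cldn3, at 3.72. All the SDL libraries rich in Osr1 were kept, and most of those left out held almost no Cyp4b1. The values of Osr1 and Cyp4b1 there thus depended on the choice of libraries and are not a separate check. In bulk libraries more cells of a type and more RNA per cell cannot be told apart.

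**Figure D4:**
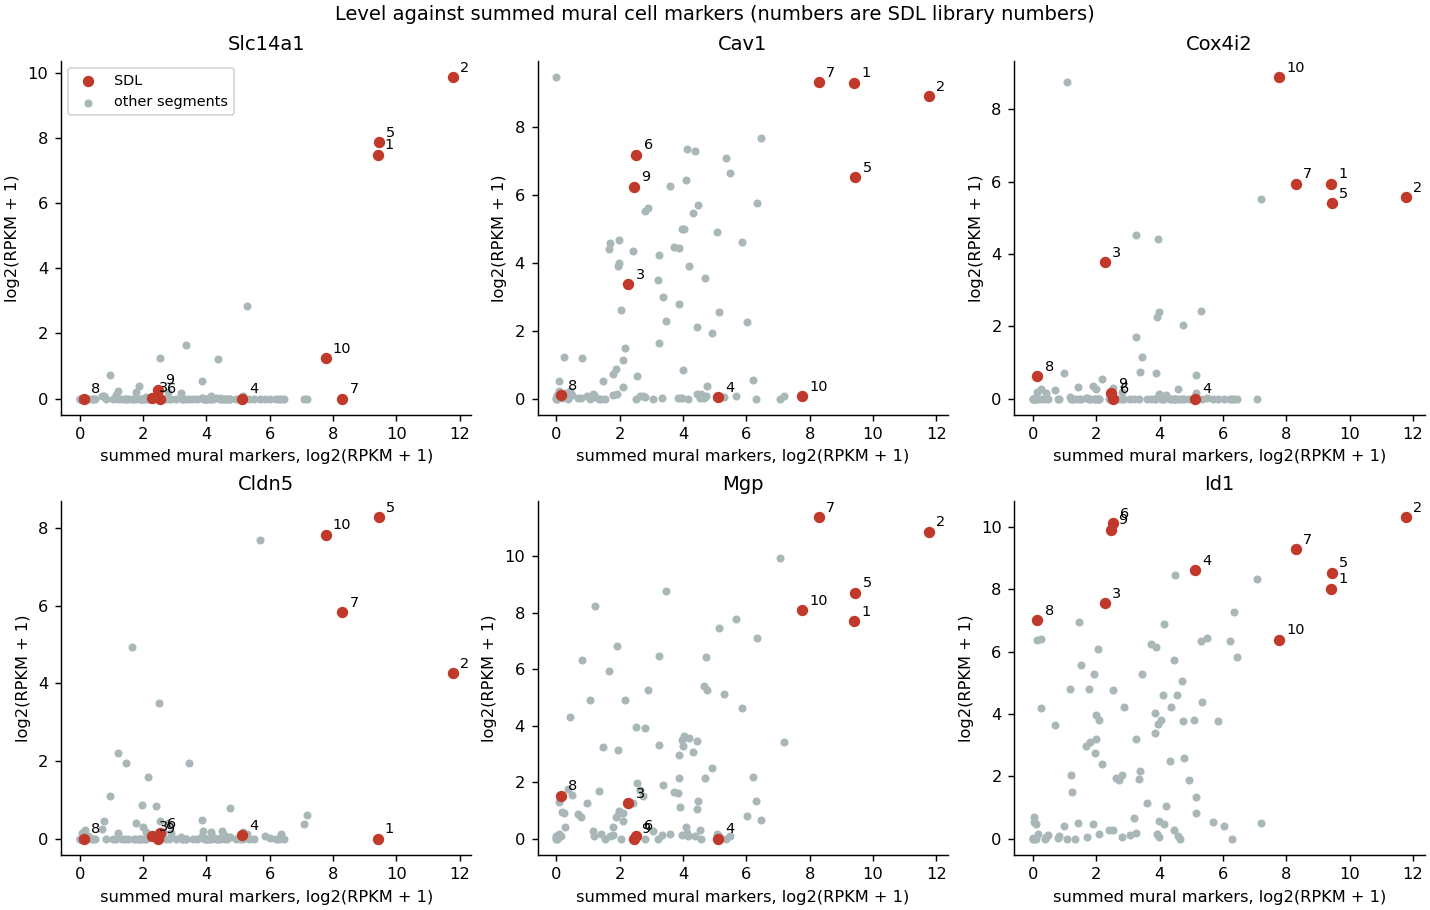
Level of 6 genes in log2(RPKM + 1) against the sum of 10 mural cell markers on the same scale, with the 10 SDL libraries in red and numbered and the other 95 libraries in grey. Slc14a1, Cldn5 and Cox4i2 were high in SDL mainly at sums over 100 RPKM, while Id1 was high across the whole range of sums.

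The largest falls were in genes known from other kinds of tubule. The carbonic anhydrase Car12 had at most 2.06 RPKM in SDL, against 251 ± 177 RPKM in CNT (SD, n = 6), and fell by 3.64 ± 0.64 (adjusted p = 2.14e-05), a call lost in the table without polyadenylation-site data (adjusted p = 0.40). The vasopressin receptor Avpr2 had at most 3.06 RPKM in SDL, against 488 ± 213 RPKM in OMCD (SD, n = 7), and fell by 3.10 ± 0.56 (adjusted p = 4.03e-05). Of the 191 lower genes, 88 peaked in S1, S2 or S3 and 51 had their lowest mean of the 14 segments in SDL. When SDL was set against the 95 other libraries as a single group, 24 genes were called lower and 197 higher.

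By list of markers, 8 of 18 tested proximal tubule genes were called lower and 1, the gamma-glutamyltransferase Ggt1, higher. The call of Ggt1 was lost without SDL 3, 5, 6, 9 or 10. Of the 8 lower genes, Slc22a6, Slc22a8, Pck1 and Slc27a2 lost their calls in 14, 16, 14 and 18 of 24 alternatives, all 4 without SDL 1 alone. Over all genes 1.72% were lower and 2.81% higher. Of the thick ascending limb list, 6 of 12 were lower, of the distal convoluted and connecting tubule list 4 of 8, of the principal cell list 8 of 11 and of the intercalated cell list 7 of 12, with none higher in these 4. Their median changes were -1.43, -1.20, -1.72 and -1.54, and that of the proximal list -1.49, against -0.10 over all genes. Leaving out a single SDL library ended the call of 1 of the 6, 2 of the 4, 4 of the 8 and 1 of the 7 lower genes in these 4 lists. The long-loop thin limb list, Aqp1, Fst, Slc4a11, Irx3 and Egfl6 among it, had 5 of 9 higher, of which Egfl6 lost its call in 13 of 24 alternatives. No gene was called among 13 leukocyte, 5 red cell and 6 podocyte markers. The leukocyte markers still summed to 2.12 to 1524 RPKM in SDL with a median of 400, against a median of 196 RPKM in the others. The intercalated cell markers summed to 62.0 to 2708 RPKM in SDL with a median of 754. Their median was 388 RPKM in the other libraries together and 4728 RPKM in OMCD. Single genes were also high in some libraries. The proximal Kap had 703 and 658 RPKM in SDL 1 and SDL 8, against under 1 RPKM in the other 8 SDL libraries. Its mean in S3 was 15376 RPKM.

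**Figure D5:**
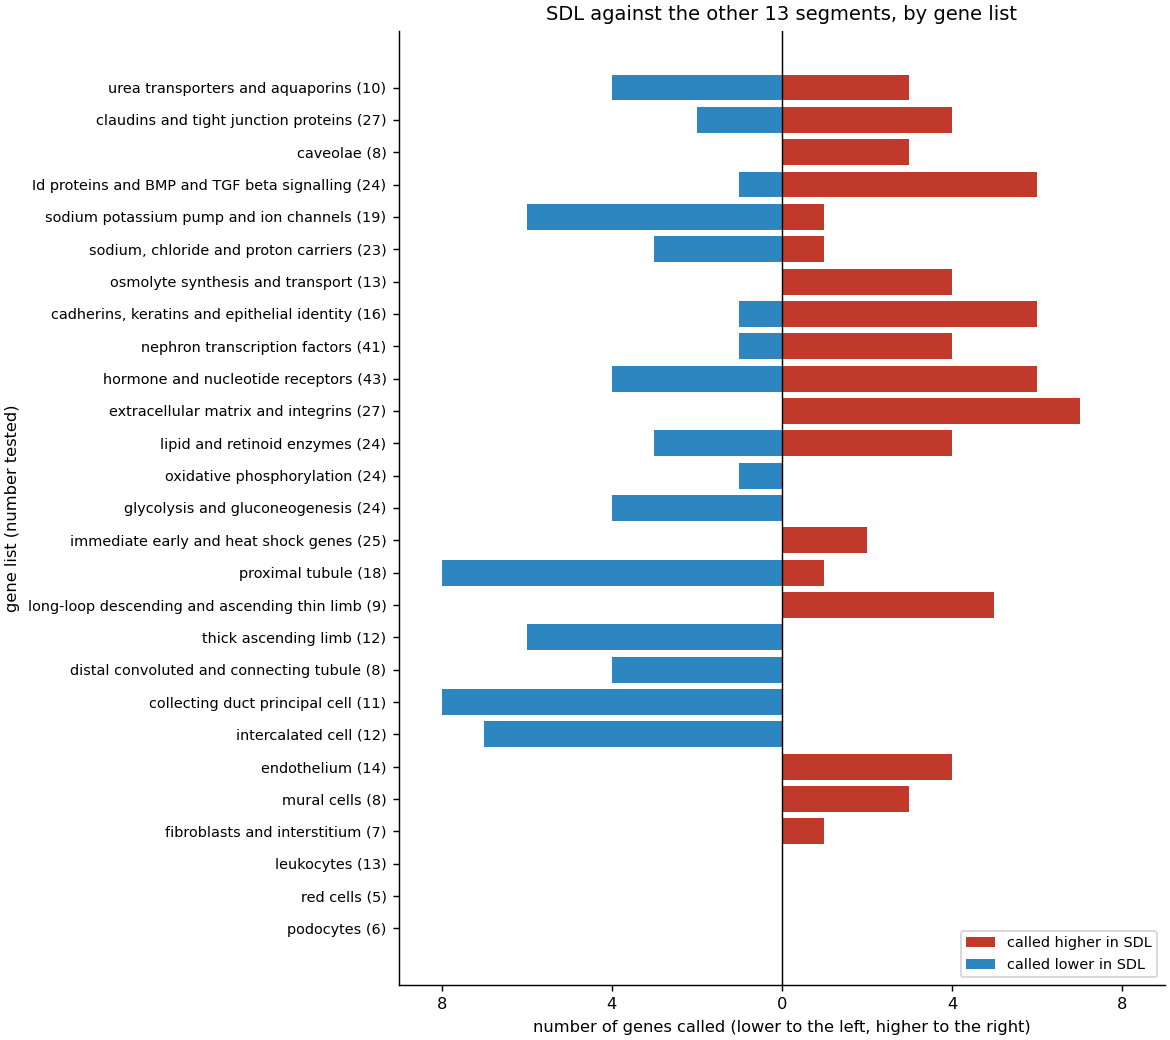
Number of genes called lower (left) and higher (right) in SDL than in the other 13 segments for each of 27 gene lists, with the number tested in brackets. The proximal, thick ascending limb, distal, principal cell and intercalated cell lists had 4 to 8 genes called lower each, and the matrix list 7 called higher.

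Among the 10 tested urea transporters and aquaporins, 3 were called higher and 4 lower, with a median of -0.70, against 2.81% higher and 1.72% lower over all genes. The lower genes were the collecting duct channels Aqp2, Aqp3, Aqp4 and Aqp6, which changed by -2.37, -1.93, -1.30 and -1.63. Their calls were lost in 10, 6, 16 and 4 of 24 alternatives, that of Aqp2 without SDL 1, 3, 4, 9 or 10, that of Aqp3 without SDL 9 and that of Aqp4 without SDL 1, 3, 4, 5, 7, 8, 9 or 10, and Aqp6 gave -0.32 in the table without polyadenylation-site data. Aqp2 still stood at 104 and 88.7 RPKM in SDL 7 and SDL 2. Among 27 claudins and tight junction genes, 4 were higher and 2 lower. Cldn2, which forms a cation and water pore, changed by 2.43 ± 0.57 (adjusted p = 0.0025), and Cldn23 by 3.99 ± 0.66 (adjusted p = 5.58e-06), while Cldn10 and Cldn16 of the thick ascending limb were at most 1.49 and 1.99 RPKM in SDL and changed by -2.75 and -1.75. Among 8 tested caveolar genes, 3 were higher, Cav1 and the cavins Ptrf and Prkcdbp, at 3.23, 2.01 and 1.80. Ptrf gave -0.086 in the table without polyadenylation-site data, and 15 of 24 alternatives ended its call, among them leaving out SDL 1, 2, 3, 5, 6, 8 or 9. The call of Prkcdbp was lost without SDL 5 or SDL 10.

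Of 19 tested pump and channel genes, 6 were lower, among them the potassium channel genes Kcnj1, Kcnj10 and Kcnq1, the chloride channel subunit Bsnd, and Fxyd2, and 1, the pump subunit Atp1b3, was higher, against 1.72% lower and 2.81% higher over all genes. The call of Atp1b3 was lost in 11 of 24 alternatives, among them leaving out SDL 3, 4, 5, 6, 9 or 10, and those of Kcnj1 and Kcnq1 without SDL 5. Kcnj10 gave -0.15 in the table without polyadenylation-site data. Kcnj1 and Kcnj10 were at most 0.101 and 0.149 RPKM in any SDL library. Fxyd2 had its lowest mean of the 14 segments in SDL, at 42.5 to 3885 RPKM with a median of 921, against a median of 2593 RPKM in the others (log2 change -1.86 ± 0.37, adjusted p = 0.00021). Of 23 carriers, 1 was higher, the transporter Slc4a11 (2.70 ± 0.54, adjusted p = 0.00022), and 3 were lower, 2 of which lost their calls without a single SDL library. In the metabolic lists, 1 of 24 oxidative phosphorylation genes and 4 of 24 glycolytic and gluconeogenic genes were lower and none was higher, with medians of -0.79 and -0.41, against -0.10 over all genes. Leaving out a single SDL library ended the oxidative phosphorylation call and 2 of the 4 glycolytic ones.

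Of 27 tested matrix and integrin genes, 7 were higher and none lower, with a median of 0.50, against 2.81% higher and 1.72% lower over all genes. The basement membrane gene Nid2 had 42.6 to 833 RPKM in SDL with a median of 272, against a median of 20.6 RPKM in the others (log2 change 3.14 ± 0.52, adjusted p = 5.58e-06), and the metalloprotease inhibitor Timp3 had 578 to 1967 RPKM, against a median of 83.2 RPKM (3.62 ± 0.61, adjusted p = 9.28e-06). The others were Sparc, Lamb3, Col4a1, Col18a1 and Egfl6, and the call of Egfl6 was lost without SDL 1, 3, 5, 6, 8, 9 or 10. Of 13 osmolyte and hypertonic stress genes, 4 were higher, the chaperones Cryab (4.10 ± 0.56, adjusted p = 3.55e-08) and Clu, the taurine carrier Slc6a6 and the tonicity factor Nfat5. Slc6a6 gave 0.61 in the table without polyadenylation-site data and was not called there (adjusted p = 0.46). The aldose reductase gene Akr1b1, which makes sorbitol, was not called, with a median of 62.2 RPKM in SDL, against 43.5 RPKM in the others.

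Among 16 epithelial identity genes 6 were higher, among them Spp1, Vim, Cd24, Lcn2 and the cadherin Cdh6, and Muc1 was lower, against 2.81% higher and 1.72% lower over all genes. Of 41 tested transcription factors, Pax8, Irx3, Ehf and Hey2 were higher and the collecting duct factor Gata3 lower. Pax8, a lineage factor of the tubule, had 30.8 to 799 RPKM in SDL with a median of 292, against a median of 23.1 RPKM in the others (log2 change 3.55 ± 0.68, adjusted p = 0.00012). Of 43 hormone and receptor genes, Edn1, Npr2, Npr3, Corin, Adora1 and the glucocorticoid receptor Nr3c1 were higher and Avpr2, Ptger3, Casr and Vdr lower. Npr2 and Npr3, receptors of natriuretic peptides, had at most 124 and 24.3 RPKM in SDL and medians of 0.490 and 0.00705 RPKM, and the call of Npr3 was lost without SDL 3, 6 or 9. The call of Edn1 was lost without SDL 5 or 9, at 0.95 and 0.90. Nr3c1, Adora1 and Vdr lost theirs in 18, 11 and 13 of 24 alternatives, each among them without SDL 1, and Adora1 gave 0.14 and Vdr -0.13 in the table without polyadenylation-site data. Of 24 lipid and retinoid genes, 4 were higher, among them Cyp4b1, Fabp3 and the retinoic acid-forming Aldh1a2, and 3 lower, among them Aldh1a1 and Ptges. Of 25 immediate early and heat shock genes, Egr1 and Dusp1 were higher, at 2.71 and 2.19, with a list median of 0.17. The call of Dusp1 was lost without SDL 1, 3, 4, 5, 6, 7 or 10, and without the 5 libraries with the most mural markers both were lost.

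Set against LDLOM alone, the other descending limb of the same zone, few genes were called. Of 11078 genes, 17 (0.153%) differed, 16 of them higher in SDL, and the median change of all genes was 0.23. At an unadjusted p under 0.05 the count was 1024. The 6 largest rises were those of Cldn3 (4.75), Cav1 (4.29), Id1 (4.19), Parvb (3.71), Cyp4b1 (3.71) and Cox4i2 (3.44). Parvb, a focal adhesion protein, had 0 to 377 RPKM in SDL with a median of 22.7, against at most 5.28 RPKM in LDLOM, and 7 SDL libraries exceeded every LDLOM library (change 3.71 ± 0.66, adjusted p = 0.0011). Cyp4b1 gave 3.71 ± 0.68 (adjusted p = 0.0011), with 6 SDL libraries above every LDLOM library. The single lower gene was Vstm2b, with a mean of 0.844 RPKM in SDL, against 13.3 RPKM in LDLOM. None of the 7 stayed called under every alternative. The call of Cldn3 was lost without SDL 5 or 9, that of Cav1 without SDL 1, 2, 5, 6, 7 or 9 and that of Vstm2b without SDL 5. With SDL and LDLOM libraries alone in the fit, 1 gene was called, which was not among the 17. In that limma fit the SE of Parvb was 1.16 (adjusted p = 0.93) and that of Cyp4b1 1.12 (adjusted p = 0.89). Quantile normalization gave 11 higher and 10 lower. Leaving out 1 SDL library gave 50 genes without SDL 1, 41 without SDL 3, 45 without SDL 4, 10 without SDL 5, 34 without SDL 7, 69 without SDL 8 and 28 without SDL 10.

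Against tAL, 211 genes (1.90%) differed, 57 higher in SDL and 154 lower. The lower genes were led by Angptl4, a secreted inhibitor of lipoprotein lipase, which had at most 0.261 RPKM in SDL, against 0.0308 to 1368 RPKM in tAL (-6.42 ± 0.76, adjusted p = 1.04e-09). The chloride channel subunit Bsnd had at most 1.75 RPKM in SDL, against a median of 332 RPKM in tAL (-5.61 ± 1.00, adjusted p = 0.00013). Atf3, Akr1b1, Isyna1 and Cldn10 followed, at -5.93, -5.89, -5.20 and -4.84. Akr1b1 and Isyna1 make the osmolytes sorbitol and inositol, and Akr1b1 had a median of 62.2 RPKM in SDL, against 7905 RPKM in tAL. Without libraries under 2500 genes these calls were lost, at -3.96 for Atf3 (adjusted p = 0.14), -4.06 for Akr1b1 (adjusted p = 0.095) and -3.52 for Isyna1 (adjusted p = 0.095). The 6 largest rises were those of St6galnac2 (5.54), Igfbp2 (5.20), Spp1 (4.67), Id3 (4.39), Ggt1 (4.17) and Aqp1 (4.08). St6galnac2, a sialyltransferase, had a median of 238 RPKM in SDL, against 0.630 RPKM in tAL (5.54 ± 1.10, adjusted p = 0.00067), and 8 SDL libraries exceeded every tAL library. Of these 6, St6galnac2 was called under each alternative, while the call of Spp1 was lost without SDL 1, 3, 8 or 10.

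Against mTAL, the segment that follows the SDL in a short-loop nephron, 430 genes (3.88%) differed, 345 higher in SDL and 85 lower, with a median change of 0.40 over all genes. The split depended on the scaling, as quantile normalization gave 261 higher and 320 lower. The urinary protein uromodulin, Umod, had 0 to 143 RPKM in SDL with a median of 2.47, against 339 to 9269 RPKM in mTAL, and the groups did not overlap (-8.07 ± 1.00, adjusted p = 1.96e-09). The sodium, potassium and chloride cotransporter Slc12a1 had at most 6.41 RPKM in SDL, against 178 to 457 RPKM in mTAL (-7.60 ± 0.66, adjusted p = 5.56e-17). Cldn10, RT1-Da, Dnase1 and Ppp1r1a followed, at -7.55, -6.35, -5.98 and -5.90. The 6 largest rises were those of Spp1 (8.34), Aqp1 (8.33), S100a6 (7.72), Id3 (7.52), Timp3 (6.84) and Fst (6.80). For Spp1, S100a6, Id3 and Timp3 every SDL library lay above every mTAL library, and all 12 of these genes were called under each alternative. The 3 comparisons share the SDL libraries, so their results are not independent of one another.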

How the data were processed

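Per the submitters' processing notes, reads were trimmed with Trimmomatic 0.32 and aligned with STAR 2.3.0-r192 to rn5, with SAMtools and HOMER also named. RPKM values are those the authors deposited, from a table that used polyadenylation sites; a second table without them was an alternative. RPKM hold no read counts, so the counting error of a value is unknown. The commonest ratio of low values, within 0.0002 on the log2 scale, put the relative depth of the SDL libraries 11.96-fold apart at most.

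Of 17974 transcripts the one with the highest mean stood for each of 17144 symbols. Genes at 1 RPKM or more in at least 4 libraries were tested with limma 3.58.1 (R 4.3.3), a trended moderated test on log2(RPKM + 1) over all 14 segments, checked on simulated data. Adjusted p are Benjamini-Hochberg over all 11078 genes. Figures used Python 3.11.15. No batch label was given.

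Named genes were the 15 largest called changes each way, the 15 largest leads over the next segment, the 6 largest called each way against LDLOM, tAL and mTAL, the markers and called list members with some examples. Pecam1, Kdr, Flt1 and the uncalled relatives were named after their values were seen. The segment, lists and markers were chosen with earlier results of these data known. Alternatives were pseudocount, filter, normalization, source table, a block, covariate, library exclusions and weights. The 5 glomerular columns were not used. A few genes that these rules name are not reported here.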

Additional observations from a re-analysis of the deposited data

Results flagged for a closer look

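In 7 of the 44 genes checked, 1 SDL library lay far from the other 9 on the log2(RPKM + 1) scale, beyond Dixon's 95% limit for 10 samples. Chance flags about 1 in 20 such groups. SDL 7 was low in 3 genes, with Vim at 5.44 RPKM, against 119 RPKM in the next lowest library, Tspan8 at 0.132 RPKM, against 250 RPKM, and St6galnac2 at 0.861 RPKM, against 57.2 RPKM. SDL 7 was also the highest in Car12, at 2.06 RPKM, against 0.504 RPKM in the next. SDL 7 had the fewest genes at 1 RPKM or more of the SDL libraries, 2195, and the most fibroblast and interstitial markers, 2677 RPKM in sum, and the part of either in these values was not tested. Smim3 was listed at 0 in SDL 1, where the next lowest library had 38.5 RPKM. Hpd, an enzyme of tyrosine breakdown found in proximal tubule, stood at 10.8 RPKM in SDL 8, against 0.306 RPKM in the next, and SDL 8 also held 658 RPKM of the proximal Kap. Ctsc stood at 6.81 RPKM in SDL 9, against 1.34 RPKM in the next.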

How the results depend on the processing

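Calls for SDL against the other 13 segments, LDLOM, tAL and mTAL numbered 502, 17, 211 and 430. With detected genes as a covariate the first was 795, 594 higher and 201 lower. With SDL against the 95 others as a single group the first was 221, and with the 2 segments compared alone in the fit the others were 1, 10 and 157. With array quality weights the first 3 were 229, 93 and 68. A pseudocount of 0.1 RPKM gave 10 against LDLOM and 126 against tAL. Without libraries under 2500 genes 535 genes were called against the other segments, 417 of them higher. Without the 5 SDL libraries with mural markers over 100 RPKM the counts against LDLOM and mTAL were 119 and 698. Without 1 SDL library at a time they ran from 356 to 511, 10 to 69, 163 to 265 and 331 to 527, and without 1 LDLIM library from 486 to 497 against the other segments. The cause of these shifts was not tested. Quantile normalization moved the median change of all genes from 0.23 to 0.00 against LDLOM and from 0.40 to 0.01 against mTAL, and the lower pseudocount moved it to -0.29 against the other segments. Among the named genes, called changes turned sign only without the mural libraries, where Rgs5 was -0.44, Slc14a1 -0.045, Cldn5 -0.28, Acvrl1 -0.35, Bmp6 -0.16, Des -0.16 and Mgp -1.55 (Rgs5 and Des are among the markers that chose those libraries), and in the table without polyadenylation sites, where Ptrf was -0.086. Deviations of same-numbered libraries of SDL and another segment correlated weakly. The median r ran from -0.033 with tAL to 0.078 with IMCD, and the highest r was 0.271 with LDLOM. No segment had every pair over 0.1. These values cannot tell whether a number marks a shared rat, since the spread between single libraries could hide it. With the replicate block the counts were 405, 22, 214 and 408, and at most 3 pairs of any segment correlated best with their own number. At the depth of single libraries low values cannot be told from absence.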
